A study of Mus musculus with 12 samples.

Results

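Mcts2, Nap1l5, Inpp5f, Zrsr1, Nnat and Peg13 are 6 mouse imprinted transcription units that lie inside larger genes, and the methylation of the windows at their starts is described here in 12 libraries. The members were chosen by gene and by mm9 window, and they are 6 of 114068 regions if each 1 kb tile of the genome with at least 5 usable cytosines is counted as a region. Within the windows 980 cytosines were listed, and 356 of them reached 20% methylation in at least 1 library and entered the means. The assay was reduced representation bisulfite sequencing (RRBS), in which the enzyme MspI cuts the genome at CCGG and fragments of 150 to 300 bp are treated with bisulfite and read. A value is the percent of reads at 1 cytosine that were methylated.

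An imprinted gene is expressed from the copy of 1 parent. In this class the start of the nested gene acquires methylation in the growing oocyte, the methylated maternal copy stays silent and the unmethylated paternal copy is transcribed, while the host gene keeps a start of its own. Nested units of this kind are known for transcription in the brain, and their activity can change where the host transcript ends. In a cell with a copy from each parent, reads from the methylated and the unmethylated copy are mixed, so the percent is intermediate.

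The bimaternal (BM) libraries were of a whole embryo at E15.5 (E for days of embryonic development), a brain at E19.5 and an adult brain. BM animals were made by injecting a parthenogenetic haploid embryonic stem cell (phESC), whose genome is of maternal origin, into a mature oocyte. The bipaternal (BP) library was of a whole embryo at E15.5, made from an androgenetic haploid embryonic stem cell (ahESC), whose genome is of paternal origin, put together with a sperm in an oocyte without its nucleus. BM and BP samples carry knockouts of differentially methylated regions (labelled DMR-KO), and the labels do not say which regions. If 1 of the windows lies in a deleted region, its value comes from the remaining copy. Wild type (WT) libraries, from an ordinary zygote, were of a whole embryo at E15.5 and an adult brain. Stem cells labelled WT were ahESCs, phESCs and diploid embryonic stem cells (ESCs), each at late and at early passage. Strain, sex and the age of the adults were not given in the sources used here.

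Every group has 1 library, which leaves no replicate error, and no comparison was tested. The SD given beside a window mean is the spread over its cytosines, which come from the same library and often the same fragments. How many reads lie behind a value is unknown, since the percents were deposited without coverage, and no interval can be given. Libraries had a value at 3773871 (BP embryo) to 5903648 (WT adult brain) of 8119606 listed positions. The late ahESC, late phESC and both adult brain libraries have values on unplaced chromosome Y sequence, at 2209 to 7697 positions, and the other 8 libraries have 0. That split of the libraries cannot be told apart from passage in the haploid cells or from age in the brains. It also runs between late haploid and late diploid ESCs, and between the adult brains and the embryos. Such values cannot be read as the sex of a sample, since late phESCs and the BM adult brain hold only genomes of maternal origin.

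CpG is the site of methylation in mammals. The RefSeq promoters of Mcts2 and Nnat (250 bases before to 50 after the start, build GRCm38.p6) hold 25 and 17 CpGs, and that of Zrsr1 holds 10. The median was 7 over 32851 promoters of the same length. Fewer CpGs than in Mcts2, Nnat and Zrsr1 were held by 81.6%, 68.6% and 56.5% of these promoters. They are shown because their CpGs lie in or at the edge of the windows measured, and capitals mark each CpG.
Mcts2 promoter: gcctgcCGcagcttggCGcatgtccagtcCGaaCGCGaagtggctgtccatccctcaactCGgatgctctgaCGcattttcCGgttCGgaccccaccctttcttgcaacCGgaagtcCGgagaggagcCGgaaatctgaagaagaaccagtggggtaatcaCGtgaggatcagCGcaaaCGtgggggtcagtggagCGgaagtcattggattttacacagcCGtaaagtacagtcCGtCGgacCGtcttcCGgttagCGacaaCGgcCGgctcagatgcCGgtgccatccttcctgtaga
Nnat promoter: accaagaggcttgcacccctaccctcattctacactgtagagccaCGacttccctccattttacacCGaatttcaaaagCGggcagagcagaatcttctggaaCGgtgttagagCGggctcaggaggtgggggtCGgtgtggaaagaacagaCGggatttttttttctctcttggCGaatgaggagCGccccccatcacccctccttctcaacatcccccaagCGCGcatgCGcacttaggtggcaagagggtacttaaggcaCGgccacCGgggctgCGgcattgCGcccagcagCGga
Zrsr1 promoter: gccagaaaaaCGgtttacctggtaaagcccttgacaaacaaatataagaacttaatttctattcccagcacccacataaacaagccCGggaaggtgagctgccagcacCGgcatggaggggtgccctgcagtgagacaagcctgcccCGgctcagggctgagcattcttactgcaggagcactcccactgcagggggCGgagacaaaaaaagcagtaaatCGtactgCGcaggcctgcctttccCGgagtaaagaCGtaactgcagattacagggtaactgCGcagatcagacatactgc
The pattern of listed cytosines placed the Mcts2 sequence at chr2:152512634-152512933 and the Zrsr1 sequence at chr11:22871755-22872054, each on the plus strand of mm9. The Nnat sequence lies at chr2:157385564-157385863 by the offset of another placed sequence of the gene. The first Nnat cytosine that entered the mean is at 157385834, near the end of that sequence.

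Mcts2 is a retrotransposed copy of Mcts1, a gene of translation initiation, and lies in an intron of H13, which encodes signal peptide peptidase. Its window is chr2:152512400-152513000 and 55 of 103 listed cytosines entered the mean. Nap1l5, a member of the nucleosome assembly protein family, lies on the opposite strand to its host Herc3, a ubiquitin ligase gene. Its window, chr6:58856500-58857000 with 29 of 76 cytosines, falls inside the Nap1l5 exon placed at chr6:58855227-58857070 on the minus strand. Inpp5f encodes an inositol phosphatase, and the imprinted unit is a short variant with a start of its own inside the gene. The window for that variant is chr7:135831500-135831900, with 21 of 101 cytosines.

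Zrsr1 is a retrotransposed copy of the splicing factor gene Zrsr2 on the opposite strand to Commd1, a gene of copper handling and protein sorting. Its window is chr11:22871800-22874100, with 125 of 330 cytosines. Nnat encodes neuronatin, a small membrane protein of neurons and endocrine cells, in an intron of Blcap. Its window is chr2:157385500-157387500, with 62 of 210 cytosines. Peg13 makes a long RNA without a protein from an intron of Trappc9, a gene of vesicle transport. Its window is chr15:72636700-72642100, with 64 of 160 cytosines between 72640130 and 72641433, across the start of the Peg13 exon placed at chr15:72636030-72640754 on the minus strand.

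The plot of window means by library shows all 72 values, and they fall into a low and a high range with few between them. In the BM and WT embryos and brains every window stood between 42.05% and 77.3%. In the ahESC, phESC and late diploid libraries every window stood at or below 10.3%.

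**Figure D1:**
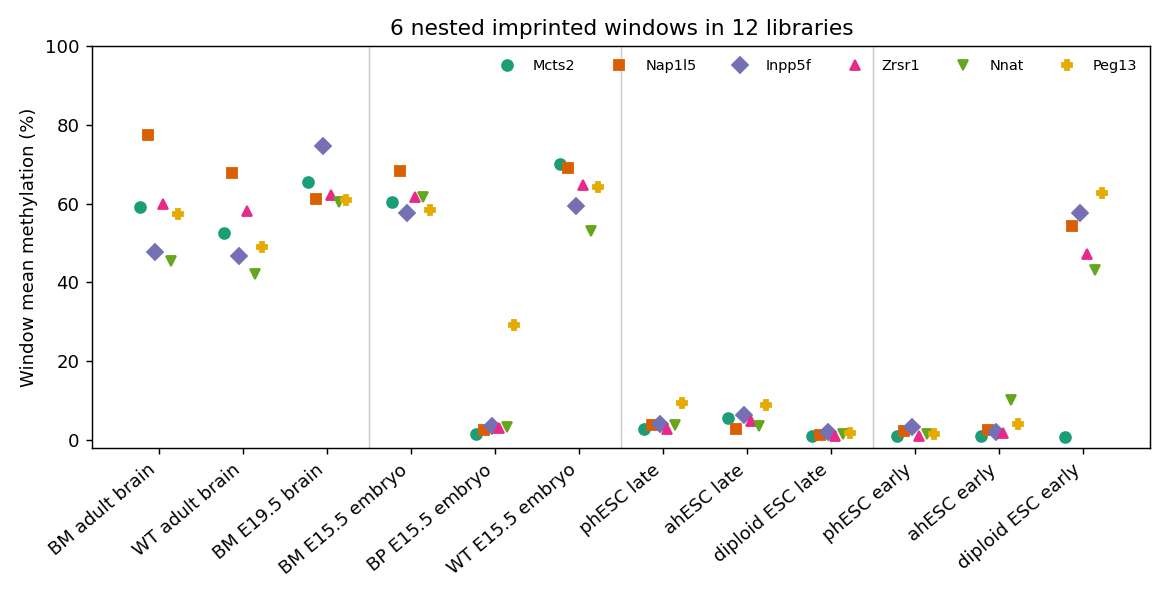
Mean methylation (percent, vertical axis) of each window in each of the 12 libraries (horizontal axis), 1 symbol per window. The exceptions to a library's common level are Peg13 in the BP embryo (29.2%), Mcts2 in the early diploid ESCs (0.776%) and Nnat in the early ahESCs (10.3%).

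In the BP embryo, which has no maternal genome, 5 of the 6 windows were nearly free of methylation and Peg13 was not. Mcts2 stood at 1.51% (SD 3.14 over 25 cytosines) in the BP embryo and at 70.2% (SD 13.6 over 41) in the WT embryo. Nap1l5 stood at 2.59% (SD 3.87 over 29) in the BP embryo and at 69.1% (SD 3.68 over 29) in the WT embryo. Both genes were low in the BP embryo at each of the 25 and 29 cytosines, none of which passed 14.3%. Inpp5f had 3.61% in the BP embryo against 59.4% in the WT embryo, over 19 cytosines in each. Zrsr1 had 3.07% over 43 cytosines in the BP embryo against 64.6% over 99 in the WT embryo. Nnat had 3.29% over 36 cytosines in the BP embryo against 53.1% over 52 in the WT embryo. In these 5 windows each of the 152 cytosines measured in both libraries was lower in the BP embryo. Cytosines entered by their level in any library, the WT embryo among them. This count, and that of Peg13 below, is therefore partly set by the filter.

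All 6 windows were at least 25 points (percentage points) lower in the BP embryo than in the WT embryo, where 0.249% of 52559 tiles of 1 kb were that much lower and 1.3% were that much higher. The median difference was -58.7 points over the 6 windows and 0.448 points over the tiles. With all 980 listed cytosines, which adds those under 20% in every library, 3 of the 6 passed. The listed positions include cytosines of GC as well as of CG. Without the 20% filter, CpG cytosines alone were measured at the placed starts of Mcts2, Nap1l5, Zrsr1, Nnat and Peg13. They had 2.36% (Zrsr1) to 29.96% (Peg13) in the BP embryo and 56.1% (Zrsr1) to 75.3% (Mcts2) in the WT embryo. With the 20% filter, the differences of the window means ran from -68.6 points at Mcts2 to -35.1 points at Peg13. That order rests partly on coverage, because the WT means of Mcts2 and Zrsr1 take in stretches without a value in the BP embryo. Over cytosines measured in both, the median difference was -67.1 points at Nap1l5, -63.01 at Mcts2, -54.4 at Inpp5f, -53.1 at Nnat, -50.97 at Zrsr1 and -33.8 at Peg13.

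Peg13 in the BP embryo stood at 29.2% (SD 8.03 over 32 cytosines), against 64.3% (SD 11.5 over 46) in the WT embryo. All 32 cytosines measured in both were lower in the BP embryo, by 14.3 to 52.5 points. The intermediate level was shared by the 3 stretches of the window, which were divided after their values were seen. In the BP embryo the inner part of the exon (72640130 to 72640197) had 30.4%, the outer part (72640214 to 72640553) 29.7% and the 4 measured cytosines upstream of the gene 24.1%. The WT embryo had 71.7%, 58.7% and 62.5% in the same 3 stretches. Of the 32 values in the BP embryo 24 lay between 25% and 75%, while none of the values of the other 5 windows in that library did, the highest being 21.1% at Zrsr1. Within 2500 bp beyond the low-coordinate edge of the Peg13 window, 5 cytosines averaged 61.4% in the BP embryo and 64.8% in the WT embryo.

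**Figure D2:**
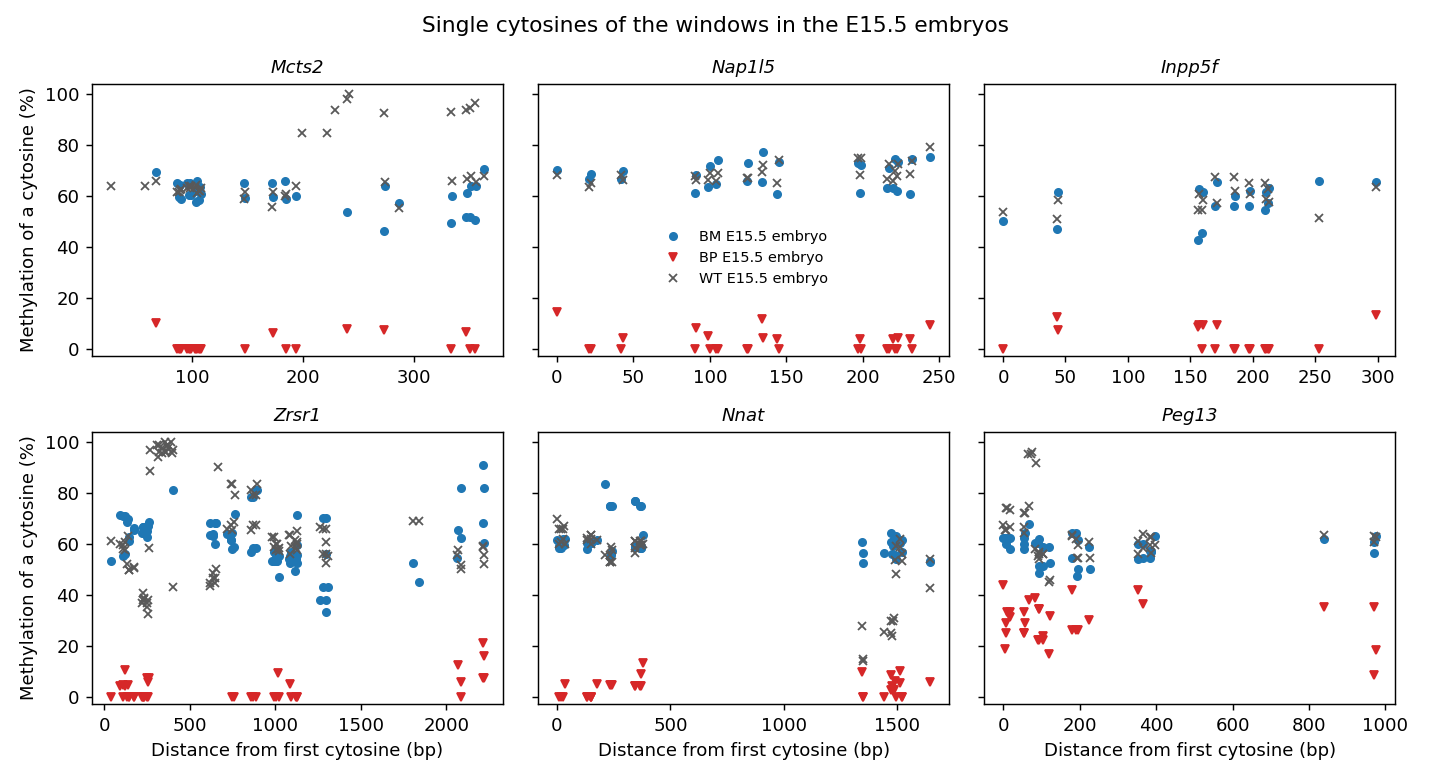
Methylation (percent, vertical axis) of each measured cytosine against its distance in bp from the window's first cytosine used (horizontal axis), for the BM, BP and WT embryos at E15.5. BP points lie at or under 21.1% in 5 panels and from 8.33% to 43.8% for Peg13, and BM and WT points overlap along most of each window.

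The BM embryo, whose genomes are both of maternal origin, stood close to the WT embryo at these windows. Its 6 means ran from 57.5% at Inpp5f to 68.3% at Nap1l5, and those of the WT embryo from 53.1% at Nnat to 70.2% at Mcts2. Of the 6 windows 0 differed by 25 points, against 0.0604% of 57981 tiles lower and 1.46% higher. The median difference was -2.44 points over the windows and 0.959 points over the tiles.

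The largest differences lay in short stretches, divided after their values were seen. Mcts2 stood at 60.3% in the BM embryo and 70.2% in the WT embryo, yet upstream of the gene (152512609 to 152512716) the BM embryo had 61.8% and the WT embryo 61.9%. Around the start (152512762 to 152512885) Mcts2 had 57.2% in the BM embryo and 80.1% in the WT embryo, with single WT values up to 100%. Over the 13 cytosines there that both measured, Mcts2 had 57.2% in the BM embryo and 78.6% in the WT embryo. Nnat stood at 61.6% in the BM embryo and 53.1% in the WT embryo. In its middle stretch (157387180 to 157387321) Nnat had 58.7% in the BM embryo against 24.5% in the WT embryo, where 9 values ran from 13.9% to 31.0%. In its first part (157385834 to 157386214) Nnat had 63.4% in the BM embryo and 60.4% in the WT embryo. Zrsr1 in the WT embryo had 16 cytosines between 22872131 and 22872257 at a mean of 96.8%, and the BM and BP embryos have no value there. In the first part of that window (22871863 to 22872128) Zrsr1 had 65.1% in the BM embryo and 48.4% in the WT embryo.

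Between the 2 uniparental embryos all 6 windows were at least 25 points higher in the BM embryo than in the BP embryo, where 0.966% of 53825 tiles were higher and 0.232% lower. With all listed cytosines 3 windows passed. The differences ran from 29.2 points at Peg13 to 65.7 points at Nap1l5, with a median of 58.5 points, against 0.557 points over the tiles. This comparison shares the BM and BP libraries with those above.

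In the haploid stem cells at early passage the windows were low in both lines, with Nnat in ahESCs the highest. The phESC means ran from 0.997% at Mcts2 to 3.39% at Inpp5f, and the ahESC means from 1.14% at Mcts2 to 10.3% at Nnat. Between the 2 haploid lines 0 windows differed by 25 points, while 46.3% of 59421 tiles were lower in phESCs and 0.0858% were higher. The median difference was -0.508 points over the windows and -23.9 points over the tiles.

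Nnat was the window that differed most between them. It stood at 1.65% (SD 2.30) in early phESCs and at 10.3% (SD 3.78) in early ahESCs, over the same 52 cytosines. It was lower in phESCs at 50 of the 52, with differences down to -17.2 points. The ahESC values of Nnat were alike along the window, with 10.5%, 8.90% and 10.9% in its first, middle and last stretches, and no cytosine fell below 4.17%. Just outside the low-coordinate edge, within 2500 bp, 18 cytosines had 25.01% in early phESCs and 72.2% in early ahESCs.

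Early diploid ESCs, which hold a genome of each parent, had 5 windows at an intermediate level and Mcts2 at almost none. Peg13 stood at 62.6% (SD 13.5), Inpp5f at 57.6% (SD 9.29) and Nap1l5 at 54.4% (SD 4.25). Zrsr1 stood at 47.2% (SD 7.16) and Nnat at 43.1% (SD 7.21). Of the 220 values of these 5 windows, 206 lay between 25% and 75%, and the 12 values above 75% belong to Peg13. Mcts2 stood at 0.776% (SD 1.44 over 35 cytosines), with a highest value of 5.80%.

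Mcts2 was thus nearly unmethylated in all 6 stem cell libraries, at 0.776% to 5.66%. It stood 69.4 points higher in the WT embryo than in early diploid ESCs. No other window was 25 points higher in that comparison, in which 14.1% of 59270 tiles were higher and 5.06% were lower. A stretch 7500 to 10000 bp beyond the high-coordinate edge of the Mcts2 window had 67.5% in the WT embryo and 6.0% in early diploid ESCs, over 15 cytosines in each. In that stretch early phESCs had 6.24% and early ahESCs 6.78%. Unlike the Mcts2 window, which had 1.51% in the BP embryo, the stretch had 60.6% there over 8 cytosines, and 59.6% in the BM embryo.

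Against early diploid ESCs, 5 windows were at least 25 points lower in early ahESCs, where 0.38% of 63928 tiles were lower and 0.3% higher. The differences ran from -58.5 points at Peg13 to -32.9 points at Nnat, with Mcts2 at 0.360. With all listed cytosines 1 window passed in either haploid line. The same 5 windows were lower in early phESCs, from -61.1 points at Peg13 to -41.5 points at Nnat. In phESCs 53.2% of 61998 tiles were also lower by 25 points and 0.116% higher, so the count of windows stands on a different background there. The median difference over the 6 windows was -48.6 points in ahESCs and -49.2 points in phESCs, against -1.56 and -26.0 points over the tiles. The 2 comparisons share the diploid library.

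**Figure D3:**
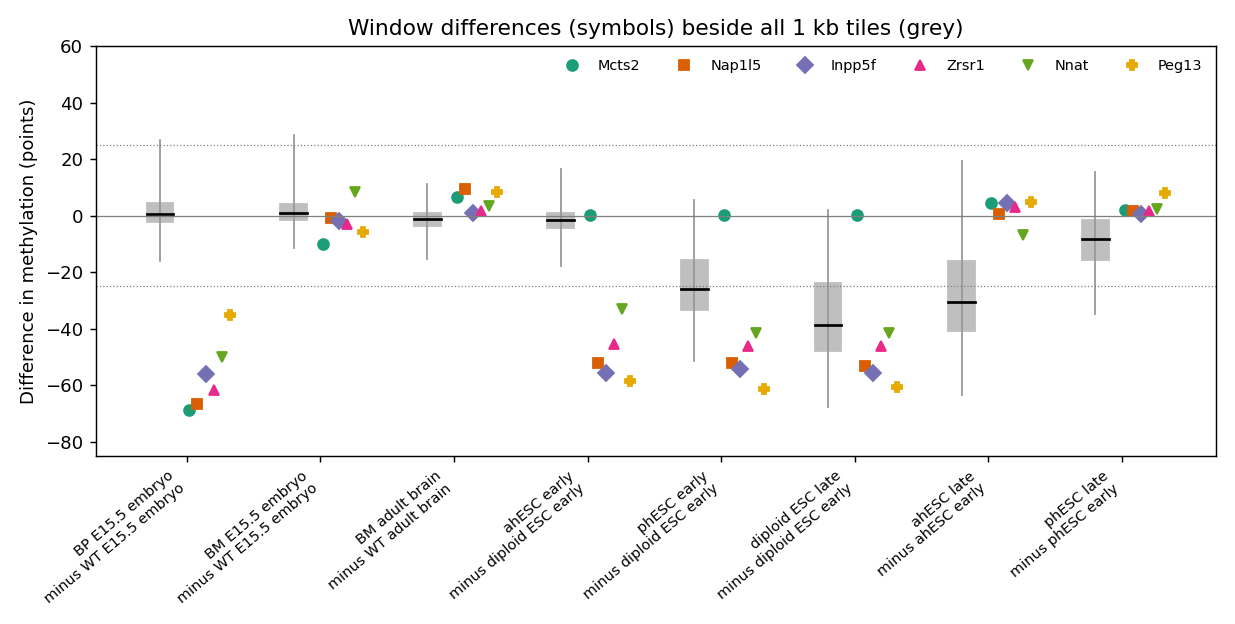
Difference in mean methylation (points, vertical axis) in 8 comparisons, with 1 symbol per window and, in grey, the median (black line), the middle 50 percent (box) and the range from percentile 1 to 99 (line) of all 1 kb tiles. The windows lie below the grey ranges in the BP embryo and, except Mcts2, in early ahESCs, and above the tile median in haploid cells at late passage.

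At late passage the diploid ESCs had almost no methylation at any of the 6 windows. Nap1l5 stood at 1.21% at late passage, against 54.4% at early passage, and Inpp5f at 2.10%, against 57.6%. Zrsr1 stood at 1.15% late and 47.2% early, Nnat at 1.63% late and 43.1% early, and Peg13 at 1.86% late and 62.6% early. These 5 windows were at least 25 points lower, and so were 73.7% of 59009 tiles, against 0.0373% higher. With all listed cytosines 1 window passed. Their late means lie within 1.13% to 2.10% with that of Mcts2. The tile median was -38.6 points, and the window median -49.7 points.

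In the haploid cells the windows were low at both passages. In ahESCs 0 windows differed by 25 points between late and early passage, against 62.7% of 53250 tiles lower and 0.0582% higher. By the window means Nnat was the exception in direction, at 3.58% late against 10.3% early, and it was lower at 48 of 51 shared cytosines. Peg13 stood at 8.91% late and 4.05% early, Inpp5f at 6.41% late and 2.10% early, and Mcts2 at 5.66% late and 1.14% early. These late means rest on few high cytosines, since the late ahESC medians were 1.94%, 1.89% and 1.26%. In the late ahESC library CCGG sites of the windows averaged 17.8%, against 1.14% for other CpGs, and the part of that gap in the late means was not tested.

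In phESCs 0 windows differed by 25 points between late and early passage, against 6.26% of 26161 tiles lower and 0.195% higher. Peg13 was highest at late passage, with 9.38% (SD 8.15 over 28 cytosines), against 1.45% early. The other 5 windows stood at 2.91% to 4.11% late and 0.997% to 3.39% early. Against late diploid ESCs, late ahESCs and late phESCs had 0 windows apart by 25 points, with 1.02% and 1.89% of tiles higher and 0.281% and 1.01% lower.

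The embryos can be set beside the kinds of stem cell named in their making. The BM and BP embryos carry DMR-KO and the stem cell libraries were labelled WT. Genotype therefore differs here and in the BP comparison below, and neither can be read as before and after of the same cells. All 6 windows were at least 25 points higher in the BM embryo than in early phESCs, from 54.1 points at Inpp5f to 66.1 points at Nap1l5. In that comparison 65.9% of 57756 tiles were higher and 0.268% lower, and the tile median was 32.6 points, against 59.6 points for the windows. Each of the 252 cytosines measured in both libraries was at least 25 points higher in the BM embryo. Cytosines entered by their level in any library, the BM embryo among them, so that count is partly set by the filter. With all listed cytosines Inpp5f was 22.5 points higher and did not pass. The other windows ran from 25.2 points at Nnat to 39.2 points at Mcts2 in that setting. The other genome of the BM embryo came from an oocyte, which was not analysed here.

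The BP embryo and early ahESCs had like levels at 4 windows. Mcts2, Nap1l5, Zrsr1 and Inpp5f differed by 0.128 to 1.51 points. Nnat was lower in the BP embryo, with 3.29% against 10.3% in ahESCs, at 32 of 36 shared cytosines. Peg13 was higher in the BP embryo by 25.2 points, at all 32 shared cytosines, with 29.2% against 4.05% in ahESCs. Over those 32 cytosines the median difference was 23.4 points, which is under the 25 points used for a call. By the window means 1 of 6 passed, where 16.2% of 53059 tiles were higher by 25 points and 2.82% lower. Sperm, the source of the other genome of the BP embryo, was not analysed here.

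In the adult brains the BM and WT libraries had like window means. Nap1l5 was highest in both, at 77.3% in the BM and 67.8% in the WT adult brain. Nnat was lowest, at 45.4% in the BM and 42.05% in the WT adult brain. Mcts2 stood at 59.2% in the BM and 52.5% in the WT adult brain, and Zrsr1 at 59.8% (BM) and 58.2% (WT). Peg13 stood at 57.4% in the BM and 49.0% in the WT adult brain, and Inpp5f at 47.7% (BM) and 46.8% (WT). Of the 6 windows 0 differed by 25 points, against 0.0998% of 77154 tiles lower and 0.0415% higher. The BM mean was the higher in each window, by 0.945 to 9.58 points, where the tile median was -1.0 points. That sign turned under some alternatives at Inpp5f, Zrsr1 and Nnat. Zrsr1 became -3.56 points with the median. With the lower coordinate of each CpG alone, Inpp5f became -4.88 points and Nnat -3.76 points.

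Inpp5f had a step inside its window in the adult brains that the embryos did not have. Over the 9 cytosines from 135831562 to 135831733 it stood at 8.19% in the BM adult brain and 17.1% in the WT adult brain. Over the next cytosines, from 135831747 to 135831861, it stood at 77.4% in the BM and 69.0% in the WT adult brain. In the BM E19.5 brain the 2 stretches had 59.4% and 88.3%. In the embryos they had 54.7% and 60.1% (BM) and 57.2% and 61.4% (WT), and in early diploid ESCs 52.2% and 62.6%. The 2 stretches were divided after their values were seen.

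Mcts2 had a step of the same kind in the adults. Upstream of the gene it stood at 76.5% in the BM and 68.1% in the WT adult brain. Around the start it stood at 38.4% over 7 cytosines (BM) and 29.0% over 13 (WT). Over the 7 that both adult brains measured there, it had 38.4% in the BM and 38.0% in the WT adult brain. Over the cytosines that the adult and the E19.5 BM brain both measured, the stretch upstream had 78.7% in the adult and 63.1% at E19.5 (20 cytosines). Those around the start had 43.4% in the adult and 63.1% at E19.5 (6 cytosines). The 2 cytosines of a CpG, 1 on each strand, also differed in some libraries. The mean gap between them at Peg13 was 30.2 points in the BM and 22.7 points in the WT adult brain, against 6.49 points in the BM embryo and 6.61 points in the WT embryo. At Nap1l5 it was 6.87 points in the BM adult brain and 8.98 points in the BM embryo. In the BM E19.5 brain it reached 16.9 points, at Inpp5f. CCGG sites of the windows averaged 42.3% in the BM and 41.99% in the WT adult brain, and other CpGs 67.1% and 56.7%. Whether these features of the library have a part in the steps was not tested.

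Between the adult and the E19.5 BM brain, Inpp5f was the 1 window lower by 25 points, with 47.7% in the adult and 74.6% at E19.5, while 9.88% of 42819 tiles were lower and 0.222% higher. Its difference was -26.9 points over each library's own cytosines. All 19 shared cytosines of Inpp5f were lower in the adult, 9 of them by at least 25 points, and their median difference was -7.31 points. The low-coordinate stretch had 8.19% in the adult and 59.4% at E19.5 (9 shared cytosines). The high-coordinate stretch had 83.4% in the adult and 88.3% at E19.5 (10 shared cytosines). The median thus differs from the difference of means in measure. Nnat stood at 45.4% in the adult and 60.5% at E19.5, and Nap1l5 at 77.3% in the adult and 61.2% at E19.5. The differences of the other 3 windows ran from -6.24 to -2.30 points over each library's own cytosines. Over shared cytosines the sign turned at Mcts2 (median 10.7 points, higher at 20 of 27) and at Zrsr1 (median 10.6 points, higher at 41 of 55). Between the BM E19.5 brain and the BM embryo 0 windows differed by 25 points, with 3.74% of 56184 tiles higher and 0.516% lower. Inpp5f was farthest apart there, with 74.6% in the E19.5 brain and 57.5% in the embryo. Between the WT adult brain and the WT embryo 0 windows differed, with 3.76% of 55871 tiles lower and 3.07% higher, and the largest gap was that of Mcts2, with 52.5% in the brain and 70.2% in the embryo. Over the 38 Mcts2 cytosines that both WT libraries measured, the median difference was 6.23 points, with 20 higher and 18 lower in the brain. Of these, 12 were lower by at least 25 points and 0 were higher by as much. Upstream of the gene, 20 shared cytosines had 70.51% in the WT adult brain and 62.01% in the WT embryo. Around the start, 13 shared cytosines had 29.02% and 82.05%. The sign thus differed by stretch, and the median differs from the window means in measure as well as in cytosines.

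The starts of the host genes were measured with each CpG of a placed promoter or first exon, without the filter at 20%. By this measure the starts of Mcts2, Nap1l5, Zrsr1, Nnat and Peg13 reached 64.3% to 75.3% in their highest library. The start of Herc3 stayed between 0.826% and 2.70% in 12 libraries, that of Trappc9 between 0.948% and 3.76%, and the outer start of Commd1 (first exon at chr11:22882079-22882382) between 0.221% and 4.14%. Blcap had 0% to 8.13% in the 9 libraries with at least 5 cytosines there, and H13 had 1.48% in the BP embryo, the 1 library with as many. The neighbours of Peg13 were as low, with Chrac1 at 0.267% to 1.97% and Ago2, an Argonaute gene of small RNA silencing, at 0.963% to 2.37%. These 5 host starts were at or below 8.13% in each library with at least 5 cytosines, and the H13 start was so measured in 1 library where Mcts2 was low too. Commd1 has a second promoter in the RefSeq table, placed at chr11:22872817-22873116 inside the Zrsr1 window. This second promoter is a part of that window, so its likeness to the Zrsr1 means was set in advance. Unlike the outer start, it had 54.9% in the BM, 1.57% in the BP and 59.99% in the WT embryo. In the adult brains it had 71.7% (BM) and 61.4% (WT).

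**Figure D4:**
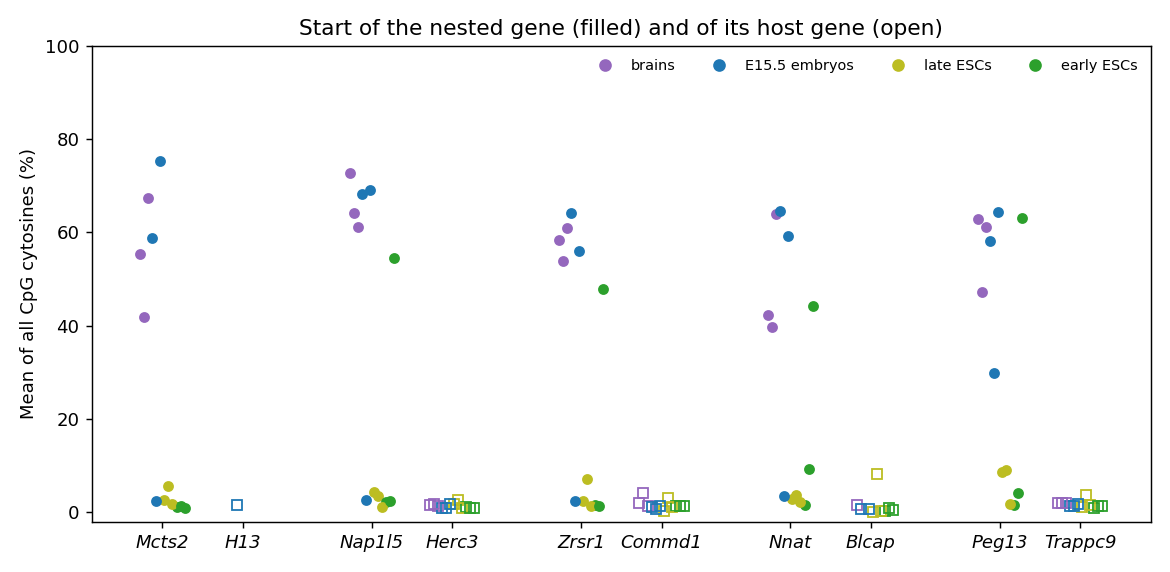
Mean methylation (percent, vertical axis) of all CpG cytosines at the start of 5 nested genes (filled) and of their host genes (open), 1 point per library with at least 5 cytosines, coloured by kind of sample. Host points lie at or below 8.13%, with the outer start shown for Commd1, and the nested genes spread up to 75.3%.

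The main start of Inpp5f, which lies upstream in the same gene (first exon Inpp5f-202, placed at chr7:135754842-135755205), was low in 10 libraries, at 0.801% to 3.56%. It stood at 11.3% in early ahESCs and 17.6% in early diploid ESCs, over 28 cytosines in each. The window of the nested variant had 2.10% in early ahESCs and 57.6% in early diploid ESCs. The start of the variant itself could not be placed by sequence.

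The hexamer TGCCGC, the letters read by the zinc finger protein ZFP57 when methylated, was searched on both strands of the placed sequence of the windows. It was found 15 times in 5 windows, with 5 in Peg13, 4 in Nnat, 3 in Nap1l5, 2 in Zrsr1 and 1 in Mcts2, while no sequence was placed in the Inpp5f window. Of all 300-base RefSeq promoters 11.6% hold it, the Mcts2, Nnat and Nap1l5 promoters among them. The placed sequence of the windows is longer and of unequal length, so that share is no background for the 15, and enrichment was not tested. Of these hexamers 6 had a value in both the BP and the WT embryo. The 3 in Peg13 had 28.2%, 29.2% and 41.7% in the BP embryo and 55.1%, 69.8% and 58.6% in the WT embryo. The 2 in Nnat had 0% and 4.55% in the BP embryo and 62.8% and 55.2% in the WT embryo, and the 1 in Nap1l5 had 1.85% and 71.1%.

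The mean profile of the 6 windows over the 12 libraries was compared with 21200 tiles that have at least 5 cytosines in each library. Likeness was the root mean square difference in points. The 2 nearest tiles adjoin each other at chr2:174124001-174125000 (3.14 points) and chr2:174125001-174126000 (3.68 points), over first exons of Gnas, an imprinted gene of a G protein subunit. The third was chr11:11926001-11927000 (5.20 points), over a first exon of Grb10, an imprinted gene of a growth factor receptor adaptor. The next, chr17:12935001-12936000 (5.37 points) and chr6:30689001-30690000 (7.05 points), have no placed start. Among the members Zrsr1 was nearest to the mean profile (2.45 points), followed by Nnat (6.14), Inpp5f (6.29), Nap1l5 (8.31), Peg13 (8.60) and Mcts2 (12.9).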

How the data were processed

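The deposited values are, per the submitters' processing notes, methylation percents from 0 to 100 per cytosine, for which the authors used Bismark 0.13.1, Trim Galore and build mm9. Cytosines of CG and of GC on both strands are listed, and missing values are marked N. The table gives no coverage.

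A window or 1 kb tile mean was taken over cytosines at 20% or more in any of the 12 libraries, with at least 5 per library. A difference of 25 points was counted as higher or lower. Named are the 6 members, their hosts and neighbours, and the 5 tiles most like them. The members and lists were chosen with earlier results of these data known.

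No mm9 genome was used. RefSeq promoters and GENCODE M21 exons were placed where their CG and GC cytosines match at least 8 listed positions, or at the offset of another placed sequence of the gene (as for the Nnat promoter), and no coordinate was converted between builds. Of 80 sequences 53 were placed, on 10 to 301 positions. Those placed by pattern alone had to match at least 2 times as many positions as the next best start. At the single false shift tried, of 2017 bp, 0 sequences matched, which adds little after that rule. The Inpp5f variant, the Nap1l5 promoter and Kcnk9 were not placed, so the Kcnk9 start is not analysed here. CpG context was known in 5 windows.

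Alternatives numbered 16, of which 3 were chosen after seeing the data. Tools were Python 3.11.15, NumPy 2.4.6, pandas 2.3.3 and Matplotlib 3.10.9.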

Additional observations from a re-analysis of the deposited data

Results flagged for a closer look

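At Mcts2 the BM mean was lower than the WT mean in E15.5 embryos (-9.84 points) and higher in adult brains (6.67 points). At Peg13 the BM mean was lower in embryos (-5.85 points) and higher in adult brains (8.38 points). Both were marked because the sign of the BM minus WT difference is opposite in the embryo and the adult brain at 5 points or more. The difference between the contrasts was not tested, since each group has 1 library. The means also rest on different cytosines in BM and WT. Over shared cytosines the median difference at Mcts2 was -2.23 points in embryos and 2.05 points in adult brains. At Peg13 it was -4.29 and 3.47 points, so each median was under 5 points in size. The flagged values are means, so these medians differ in measure as well as in cytosines. In embryos Mcts2 had 57.2% (BM) and 78.6% (WT) at 13 shared cytosines around its start, and 61.8% and 61.9% at 21 upstream. In adult brains Peg13 had 74.6% (BM) and 54.2% (WT) at 14 shared cytosines of the inner exon. At 13 of the outer exon it had 50.5% and 46.0%, and at 10 upstream 42.3% and 51.8%.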

How the results depend on the processing

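No paired analysis was possible because each group has 1 library, and replicates could not be left out in turn for the same reason. Of 1486 window differences recomputed under the 16 alternatives, 80 changed sign, none of them past 25 points as reported, and 46 moved by more than the spread over cytosines. Of 288 counts of windows past the threshold, 265 stayed within 1.5 times.

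With all listed cytosines, which adds those under 20% in every library, 3 windows passed for BP against WT embryo, 3 for BM against BP embryo, 0 for the adult against the E19.5 BM brain, 0 for the BP embryo against early ahESCs, and 1 each for early ahESCs, early phESCs and late diploid against early diploid ESCs. The Inpp5f call in the adult against the E19.5 BM brain became 0 windows also with the median, at 35 points, with the higher coordinate of each CpG alone and with known CpGs outside CCGG, which leaves Inpp5f out. It became 3 windows at 15 points. The Peg13 call of the BP embryo against early ahESCs became 0 windows with cytosines measured in both libraries, in all 12, with the higher coordinate alone and at 35 points. Cytosines measured in all 12 libraries gave 1 window for BM against WT embryo, which is Nnat at 33.7 points over 6 cytosines, and 2 for the WT adult brain against the WT embryo. On those 6 cytosines Nnat in the BP against the WT embryo stood at -21.6 points. Of the sign changes 5 also moved beyond the spread, all with cytosines measured in all 12 libraries. For the WT adult brain against the WT embryo, Nnat became 28.7 points (-11.1 as reported), Mcts2 8.46 (-17.6) and Zrsr1 12.2 (-6.44). Mcts2 in the adult against the E19.5 BM brain became 17.2 (-6.24), and Nnat in the WT embryo against early diploid ESCs became -15.6 (9.99). The WT adult brain against the WT embryo had 2 at 15 points, 1 with known CpGs outside CCGG and 1 with the lower coordinate alone. At 15 points the E19.5 brain against the BM embryo had 1 window and the WT embryo against early diploid ESCs had 2. The setting with all listed cytosines adds cytosines of GC as well as of CG. Beyond the added or missing cytosines, the cause was not tested. Unknown depth limits each single value.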

Other observations

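The 2500 bp beyond the low-coordinate edge of the Nnat window did not share the level of the window in the embryos. Over 15 to 19 cytosines the stretch stood at 73.3% in the BM, 48.4% in the BP and 79.2% in the WT embryo, while the Nnat window had 61.6%, 3.29% and 53.1%. In the adult brains the levels were closer, with 39.1% (BM) and 46.5% (WT) in the stretch and 45.4% (BM) and 42.05% (WT) in the window.

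A stretch 2500 to 5000 bp beyond the low-coordinate edge of the Peg13 window was higher in the BP embryo, with 56.9% over 11 cytosines, than in the BM embryo (35.2%) and the WT embryo (35.1%). The Peg13 window itself was lower in the BP embryo than in both.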
